A study of Mus musculus with 4 samples.

Results

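The adenosine and extracellular ATP pathway was described here through 10 of the 24369 genes in the deposited tables. They were the adenosine receptor genes *Adora3*, *Adora2a* and *Adora2b*, the cell surface enzyme genes *Entpd1*, *Nt5e* and *Acpp*, the intracellular enzyme genes *Ada* and *Adk*, and the ATP receptor genes *P2rx4* and *P2rx7*. The genes were found by symbol, and all 10 were present. *Adora3* and *Acpp* were chosen by their measured log2 fold change between the groups in these same libraries, so their values are given as a description without a test. The other 8 were taken by function. RNA-seq was carried out on 4 libraries of splenic CD4 T cells from WT C57BL/6 mice, 2 that carried an empty retroviral vector (EV RV) and 2 that carried a retrovirus encoding Tox (Tox RV), with 2 individual mice behind each group. Naïve cells of both groups were activated with anti-CD3 and anti-CD28 plus IL-2 without polarizing cytokines (the sample labels name anti-CD28 where the methods name IL-2), transduced on day 2, restimulated through the T cell receptor on day 5 over 5 h, and sorted as GFP+ cells. The vector is a murine stem cell virus backbone in which GFP follows an internal ribosome entry site, so Tox was ectopic and driven by the virus, and both groups went through transduction.

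ATP that leaves a cell acts as a danger signal on the P2X ion channels and P2Y receptors of neighbouring cells. Cell surface enzymes remove its phosphates in steps, CD39 (*Entpd1*) from ATP to AMP and CD73 (*Nt5e*) from AMP to adenosine. Adenosine dampens T cell activation mainly through the receptor encoded by *Adora2a*, which raises cyclic AMP (cAMP), and it is removed inside and outside the cell by adenosine deaminase and, after uptake, by adenosine kinase.

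The expected counts, which are RSEM's estimates of the fragments of each gene, summed to between 46989997 and 74548723 per library. EV RV replicate 1 stood apart from the other 3 libraries. It lay at -53.8 on the first principal component (58.0% of the variance) with the others between 5.70 and 25.8, and 45S pre-ribosomal RNA took 24.7% of its counts against 7.14% to 12%. Levels below are CPM (counts per 1000000 after scaling by edgeR's TMM method), or TPM (transcripts per 1000000) where different genes are compared, since TPM takes transcript length into account. A pair of values for a group is given in the order replicate 1, replicate 2. *Tox* was at 11.7 and 5.73 CPM with EV RV and at 121 and 99.9 CPM with Tox RV, so every library lay on the side of its label. *Cd4* was at 324 to 479 CPM, and *Ms4a1*, *Lyz2* and *Ncr1*, which mark B, myeloid and NK cells, had at most 2 counts in any library, while *Klrk1* (252 to 1546 counts), *Klrd1* (103 to 645) and *Cd68* (129 to 297), from the same marker lists, were detected in all 4. Because RNA was taken from bulk cells, fewer cells expressing a gene and less RNA per cell cannot be told apart.

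All 10 genes passed the low-count filter, with at least 15 counts in every library. Of the 10, 7 had a log2 fold change above 0 and 3 below 0, but the 7 include *Adora3* and *Acpp*, chosen by this value. Among the 8 genes taken by function, 5 lay above 0 and 3 below 0, where 50.4% of the 14143 genes tested lay above 0. The quasi-likelihood test of edgeR, with Benjamini-Hochberg adjustment over all genes, called 0 of the 10 at 0.05 (0% of all genes did). Without adjustment, 2 lay below 0.05 (3.62% of all genes), both higher with Tox RV (1.07% of all genes), and DESeq2 called 2 at an adjusted p-value below 0.05 (0.121% of the 18183 genes with an adjusted value). In both cases these were *Adora3* and *Acpp*, so nothing is read from the counts. A log2 fold change above 1 was seen for these 2 (0.841% of all genes) and one below -1 for 0 of the 10 (2.54%). In CPM the groups did not overlap for 5 of the 10 (36.0% of all genes), with Tox RV higher for *Adora3*, *Acpp*, *Adk* and *P2rx7* (18.6%) and lower for *Entpd1* (17.4%). Among the 8 genes taken by function this was 2 higher and 1 lower. With 2 libraries against 2, an exact two-sided permutation test of a single value cannot give a p below 0.333. The edgeR test did not call even *Tox* (log2 fold change 3.68, edgeR adjusted p = 0.490). A gene that it does not call is therefore not shown to be unchanged.

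By TPM the order of the 10 genes in these cells was *Adk*, *Adora2a*, *P2rx7*, *Ada*, *Nt5e*, *P2rx4*, *Adora2b*, *Entpd1*, *Adora3* and *Acpp*. *Adk* had a mean of 34.7 ± 10.4 TPM (SD, n = 4 libraries) and *Acpp* of 0.575 ± 0.567 TPM. Between neighbours in this order the ranges over the 4 libraries overlapped, except between *Adora2b* (5.53 to 10.4 TPM) and *Entpd1* (2.77 to 4.38 TPM). *Adk* stood at percentile 76.2 of the mean TPM of all genes tested, the next 6 genes between percentiles 43.5 and 60.5, *Entpd1* at percentile 32.2, *Adora3* at 25.8 and *Acpp* at 13.1. *Ada* was the steadiest, at most 1.34 times higher in its highest than in its lowest library, and *Acpp* and *Adora3* varied most, by 15.0 and 11.5 times.

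**Figure D1:**
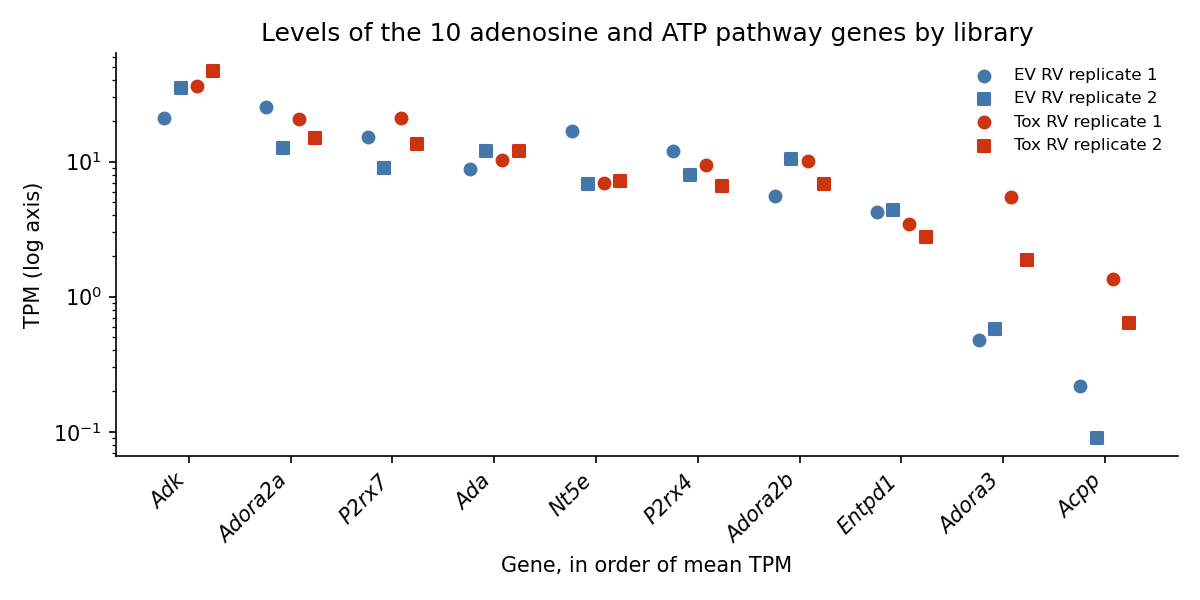
TPM of each gene in each library on a log axis, with EV RV libraries in blue and Tox RV libraries in red, circles for replicate 1 and squares for replicate 2. The 8 genes taken by function stay between 2.77 and 46.6 TPM in all libraries, while *Adora3* and *Acpp* lie below 6 TPM and their red points lie above their blue points.

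*Adora3* encodes the A3 adenosine receptor, which couples to an inhibitory G protein. The protein coding gene spans chromosome 3 positions 105870858 to 105908926 on the plus strand, in the mm10 build used for all positions here. Its promoter is shown because *Adora3*, with *Acpp*, had the largest log2 fold changes of the 10. The sequence runs from 250 bases before to 50 bases after the annotated start (RefSeq, GRCm38.p6, chr3:105904171-105904470, plus strand), and the capitals mark a match to the AP-1 motif searched for below. This RefSeq start lies inside the gene span given above and is not the position where that span begins.
*Adora3* promoter: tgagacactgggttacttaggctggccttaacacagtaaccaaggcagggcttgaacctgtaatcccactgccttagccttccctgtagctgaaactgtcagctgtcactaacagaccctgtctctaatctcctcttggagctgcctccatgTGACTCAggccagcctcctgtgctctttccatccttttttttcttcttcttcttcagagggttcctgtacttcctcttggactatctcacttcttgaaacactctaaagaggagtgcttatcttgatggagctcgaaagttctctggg
*Adora3* had 27 and 62 counts with EV RV and 504 and 140 counts with Tox RV. These counts correspond to 0.640 and 0.815 CPM with EV RV and 7.97 and 2.70 CPM with Tox RV. Here Tox RV was higher without overlap, and Tox RV replicate 1 was the higher of the pair. The mean was 0.727 ± 0.123 CPM with EV RV and 5.33 ± 3.73 CPM with Tox RV (SD, n = 2). The log2 fold change was 2.86 (standard error, SE, 0.58). Without Tox RV replicate 1 it was 1.87, and with each of the other libraries left out it was 2.71 to 3.44.

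Reads of *Adora3* can also be assigned to *Tmigd3*, a gene of an immunoglobulin domain protein that overlaps it on the same strand. In the deposited tables the *Tmigd3* entry holds 2 RefSeq transcripts. GENCODE names one of these Adora3-202, and in its version 1065 of 1219 bases lie in exons of the *Adora3* transcript counted under *Adora3*. GENCODE gives the other 900 bases. The mean transcript length that RSEM reports for the *Tmigd3* entry was 1161 to 1703 bases. The transcripts counted there were thus in part longer than in GENCODE, and their shared bases were not measured. *Tmigd3* was at 1.26 and 0.223 CPM with EV RV and at 0.569 and 0.231 CPM with Tox RV. *Adora3* took 33.7% of the reads of both entries in EV RV replicate 1, 78.5% in EV RV replicate 2, and 93.3% and 92.1% with Tox RV. The division of reads between the entries therefore differed most in EV RV replicate 1. Summed, they were at 1.90 and 1.04 CPM with EV RV and 8.54 and 2.93 CPM with Tox RV. The groups did not overlap, Tox RV being higher, giving a log2 fold change of 1.99 (SE 0.59), which is 3.96-fold as compared to 7.27-fold for *Adora3* alone.

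**Figure D2:**
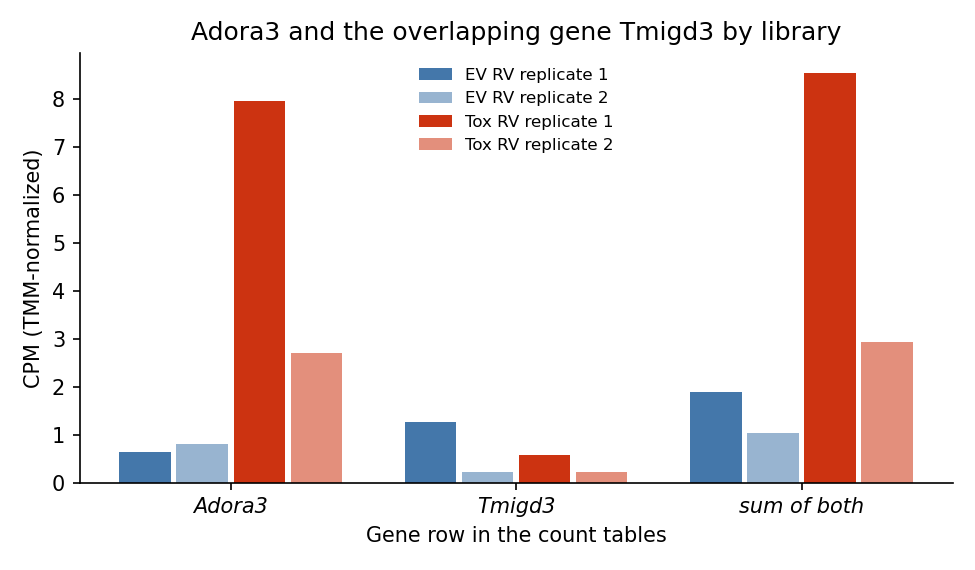
TMM-normalized CPM of *Adora3*, *Tmigd3* and their sum, with a bar for each library (blue EV RV, red Tox RV, paler for replicate 2). EV RV replicate 1 has more *Tmigd3* (1.26 CPM) than *Adora3* (0.640 CPM), and in the sum the Tox RV bars (8.54 and 2.93 CPM) stand above the EV RV bars (1.90 and 1.04 CPM).

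*Adora2a* encodes the main adenosine receptor of T cells (chromosome 10, 75316877 to 75334784, plus strand). It was at 37.1 and 19.6 CPM with EV RV and at 33.1 and 23.8 CPM with Tox RV. The Tox RV libraries fell between the EV RV libraries, giving a log2 fold change of 0.01 (SE 0.34, edgeR adjusted p = 0.997). *Adora2b* encodes the A2B receptor, which binds adenosine with lower affinity (chromosome 11, 62248984 to 62266453, plus strand). It was at 5.62 and 11.0 CPM with EV RV and 11.1 and 7.50 CPM with Tox RV, with overlapping groups and a log2 fold change of 0.15 (SE 0.38, adjusted p = 0.947). The sign of both values turned with a library left out, from -0.38 (without EV RV replicate 2) to 0.53 (without EV RV replicate 1) for *Adora2a* and from -0.25 (without EV RV replicate 1) to 0.73 (without EV RV replicate 2) for *Adora2b*. *Adora1*, the A1 receptor gene, had too few counts to be tested and reached at most 0.04 TPM.

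Set against each other per length, *Adora2a* was the most abundant adenosine receptor transcript in every library. *Adora3* made up 1.53% and 2.45% of the summed TPM of *Adora2a*, *Adora2b* and *Adora3* with EV RV, and 15.2% and 7.93% with Tox RV. The TPM of *Adora2a* was 52.7 and 21.9 times that of *Adora3* with EV RV, and 3.77 and 7.98 times with Tox RV. Even with Tox RV *Adora3* therefore stayed below *Adora2a*. The summed TPM of the 3 receptor genes was 31.3 and 23.6 with EV RV and 36.3 and 23.6 with Tox RV, and so overlapped between the groups.

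Of the enzymes on the cell surface, *Entpd1* (CD39; chromosome 19, 40612366 to 40741602, plus strand) was at 10.4 and 11.2 CPM with EV RV and at 9.14 and 7.32 CPM with Tox RV. The groups did not overlap, Tox RV being lower by a log2 fold change of -0.39 (SE 0.22, edgeR adjusted p = 0.897). *Nt5e* (CD73; chromosome 9, 88327197 to 88372092, plus strand) was at 34.5 and 14.7 CPM with EV RV and 15.5 and 16.1 CPM with Tox RV. EV RV replicate 1 was high and the other 3 libraries lay together. The log2 fold change was -0.64 (SE 0.40, adjusted p = 0.897). It rested on the EV RV libraries, being 0.09 without EV RV replicate 1 and -1.12 without EV RV replicate 2 (adjusted p = 0.0331 in the latter fit, which called 600 of 14408 genes).

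*Acpp* encodes prostatic acid phosphatase, which like CD73 can turn AMP into adenosine at the cell surface. The gene spans chromosome 9 positions 104288251 to 104337748, minus strand. Its promoter is shown beside that of *Adora3* because the pair had the largest differences of the 10 genes (RefSeq, GRCm38.p6, chr9:104337673-104337972, minus strand). It held none of the motifs searched for.
*Acpp* promoter: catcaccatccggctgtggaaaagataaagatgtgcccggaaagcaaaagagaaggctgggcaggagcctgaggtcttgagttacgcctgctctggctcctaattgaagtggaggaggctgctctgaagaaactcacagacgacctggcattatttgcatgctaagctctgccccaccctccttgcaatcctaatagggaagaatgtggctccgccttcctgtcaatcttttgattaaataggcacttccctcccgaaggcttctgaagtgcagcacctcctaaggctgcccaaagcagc
*Acpp* had 24 and 15 counts with EV RV and 204 and 88 counts with Tox RV, which are 0.569, 0.197, 3.22 and 1.70 CPM. Tox RV lay above EV RV in all 4 pairings, with means of 0.383 ± 0.263 CPM for EV RV and 2.46 ± 1.08 CPM for Tox RV (SD, n = 2). The log2 fold change was 2.75 (SE 0.62), 3.63 without EV RV replicate 1 and 2.12 without EV RV replicate 2. *Acpp* nevertheless remained the lowest of the 3 surface enzymes described here. The TPM of *Nt5e* was 76.5 and 75.8 times that of *Acpp* with EV RV and 5.14 and 11.3 times with Tox RV.

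Inside the cell, *Ada* encodes adenosine deaminase, which turns adenosine into inosine, and *Adk* encodes adenosine kinase, which turns it into AMP. *Ada* (chromosome 2, 163726584 to 163750239, minus strand) was at 8.22 and 11.6 CPM with EV RV and at 10.4 and 12 CPM with Tox RV. The groups overlapped, with a log2 fold change of 0.18 (SE 0.24, edgeR adjusted p = 0.910). *Adk* (chromosome 14, 21052574 to 21448569, plus strand) was at 21.1 and 37.0 CPM with EV RV and 39.2 and 50.5 CPM with Tox RV. The Tox RV values exceeded both EV RV values, although EV RV replicate 2 was within 3 CPM of Tox RV replicate 1. The log2 fold change was 0.63 (SE 0.31, adjusted p = 0.897), and 0.27 without EV RV replicate 1, the lowest library. Per length, the ratio of *Adk* to *Ada* was 2.39 and 2.97 with EV RV and 3.48 and 3.92 with Tox RV. This ratio was not planned, and *Adk* alone already kept the groups apart in TPM (21.2 and 35.2 against 36.0 and 46.6).

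*P2rx7* and *P2rx4* encode ATP-gated cation channels, of which P2X7 needs high ATP and can open a large pore, while P2X4 responds to lower ATP. The genes are neighbours on chromosome 5 on the plus strand, *P2rx7* from 122643911 to 122691432 and *P2rx4* from 122707544 to 122729738, with 16.1 kb between them. *P2rx7* was at 32.1 and 20.5 CPM with EV RV and at 55.2 and 33.4 CPM with Tox RV. Here Tox RV was higher without overlap, but Tox RV replicate 2 and EV RV replicate 1 were nearly equal. The log2 fold change was 0.76 (SE 0.33, edgeR adjusted p = 0.897), and from 0.34 without Tox RV replicate 1 to 1.11 without EV RV replicate 1. *P2rx4* was at 13.2 and 9.20 CPM with EV RV and 11.4 and 7.98 CPM with Tox RV. These groups overlapped, with a log2 fold change of -0.20 (SE 0.28, adjusted p = 0.910).

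In TPM the *P2rx7* values were 15.2 and 9.00 with EV RV and 20.9 and 13.5 with Tox RV, so on this scale the groups overlapped. The scales differ in their scaling between libraries and in the transcript length that RSEM reports, which is the mean over the transcripts of a gene weighted by their abundance. For *P2rx7*, with 5 RefSeq transcripts of which GENCODE gives the longest 4936 bases and the shortest 712 bases, it was 3677 and 3769 bases with EV RV and 4216 and 3963 bases with Tox RV. The length was greater in both Tox RV libraries, an arrangement seen in 12.9% of the 3978 genes tested that have several transcripts. The longest of the 4 values was 1.15 times the shortest, a ratio that 3.65% of those genes reached. Of the other genes with several transcripts, *Acpp* varied from 3702 to 4471 bases with overlapping groups, and *Adk*, *Ada* and *Entpd1* stayed within 7 bases. Within each library, *P2rx7* stood at 1.28 and 1.14 times the TPM of *P2rx4* with EV RV and at 2.20 and 2.03 times with Tox RV, a ratio looked at after the values were seen.

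**Figure D3:**
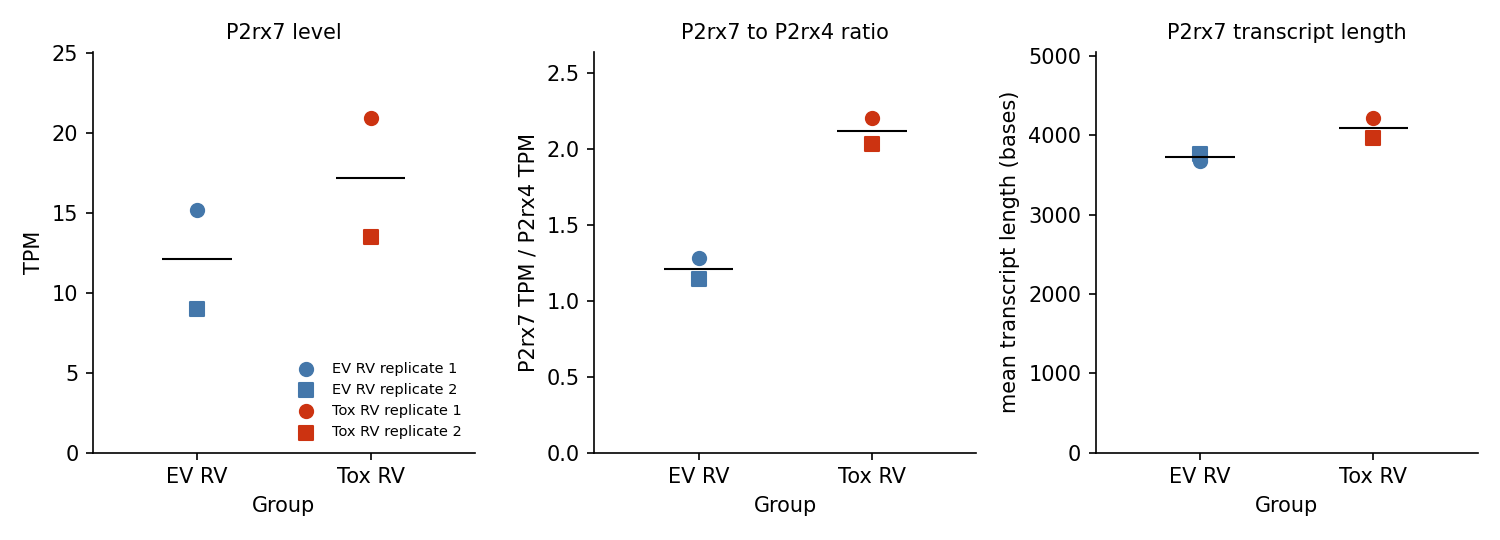
*P2rx7* in TPM (left), the ratio of *P2rx7* to *P2rx4* TPM (middle) and the mean length in bases of the *P2rx7* transcripts (right) for each library, with circles for replicate 1, squares for replicate 2 and a line at the group mean. The groups overlap in level but not in the ratio (1.28 and 1.14 against 2.20 and 2.03) or in the length (3677 and 3769 against 4216 and 3963 bases).

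The promoter of *P2rx7* is shown because, with that of *Adora3*, it held a match to a motif (RefSeq, GRCm38.p6, chr5:122643677-122643976, plus strand, the first of its 2 annotated starts), and the capitals mark that match.
*P2rx7* promoter: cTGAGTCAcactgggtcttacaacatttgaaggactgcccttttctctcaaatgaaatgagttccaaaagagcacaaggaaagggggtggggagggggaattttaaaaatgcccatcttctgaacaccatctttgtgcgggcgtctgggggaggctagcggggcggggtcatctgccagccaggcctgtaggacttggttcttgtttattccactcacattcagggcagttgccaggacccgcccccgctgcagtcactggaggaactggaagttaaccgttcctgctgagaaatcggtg
Promoters were searched on both strands for TGANTCA (the AP-1 motif, bound by JUN and BATF), for that motif directly after GAAA or 4 bases after TTTC (combined AP-1 and IRF motifs, which overlap it) and for TGACGTCA (the cAMP response element). Of the 10 genes, 9 had a promoter in the table, in 12 windows of 300 bases, and *Adora2a* had none there. TGANTCA was found in 2 of the 12 windows, at position -98 from the start of *Adora3* and -249 from the first start of *P2rx7*. Of all 32851 windows, 7.81% hold it. The window of the other *P2rx7* start held no match. The combined motifs (0.125% and 0.119% of all windows) and the cAMP response element (1.79%) were in no window of the 9 genes. A match is a description of the letters and not a binding site.

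**Figure D4:**
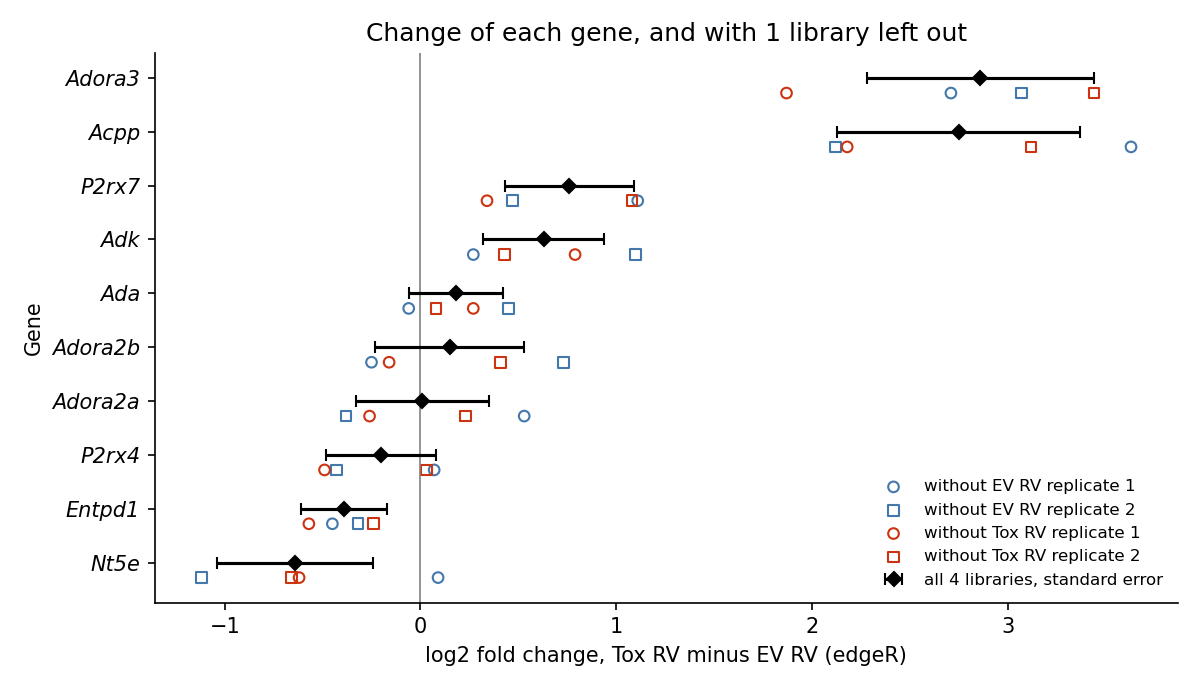
Log2 fold change (Tox RV minus EV RV) of each gene from edgeR with its standard error (diamonds and bars), and below it the value with 1 library left out (open symbols). *Adora3* and *Acpp*, picked for this difference, stay at or above 1.87, *P2rx7* and *Adk* stay above 0, *Entpd1* stays below 0, and the other 5 genes cross 0 when a library is left out.

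To place these genes in the wider pathway, 7 lists with 94 genes were examined, of which 78 had enough counts to be tested. Without the 10 genes above, 68 remained. Of these 27 were above and 41 below 0, the median log2 fold change was -0.11 (0.00 for all genes tested), and edgeR called 0 at an adjusted p-value below 0.05 (0% of all genes). Without adjustment 2 lay below 0.05, both lower in Tox RV cells (2.55% of all genes), and DESeq2 called 0. The groups did not overlap in 20 of the 68, Tox RV being higher in 7 and lower in 13 (18.6% and 17.4% of all genes).

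Among the P2X receptors, 6 of 7 were tested, 2 above and 4 below 0. *P2rx4* and *P2rx7* were the most abundant, and *P2rx1*, *P2rx2*, *P2rx3* and *P2rx5* stayed at or below 2.58 CPM. Among the P2Y receptors, 7 of 8 were tested, 1 above and 6 below 0, with a median log2 fold change of -0.45. *P2ry14*, the receptor of UDP-glucose, was at 15.8 and 14.3 CPM with EV RV and 12.9 and 8.40 CPM with Tox RV (log2 fold change -0.49, standard error 0.26, edgeR adjusted p = 0.897). *P2ry10*, which despite its name responds to a lysophospholipid, was the most abundant of the family at 126 to 192 CPM with overlapping groups.

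Of the extracellular nucleotide enzymes 10 of 13 were tested, 5 above and 5 below 0. *Art2b*, whose product modifies P2X7 on mouse T cells with ADP-ribose from NAD, was at 5.59 and 8.34 CPM with EV RV and at 4.68 and 4.09 CPM with Tox RV. Tox RV was lower without overlap (log2 fold change -0.67, standard error 0.28, edgeR adjusted p = 0.897). Its reads can be shared with the near-identical copy *Art2a*, so its counts are uncertain. *Cd38*, which degrades NAD, was at 8.01 to 11.3 CPM with overlapping groups.

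Of the genes for nucleoside transport and ATP release 9 of 11 were tested, 3 above and 6 below 0. *Slc29a1*, which carries adenosine across the membrane in both directions, was the most abundant, at 144 and 149.8 CPM with EV RV and 163 and 181 CPM with Tox RV (log2 fold change 0.23, standard error 0.16, edgeR adjusted p = 0.897). *Panx1*, a channel that releases ATP, was at 42.2 and 37.3 CPM and at 46.0 and 48.6 CPM (log2 fold change 0.25, standard error 0.17, adjusted p = 0.897). In both, Tox RV was higher without overlap, by less than 1.2-fold. Of the intracellular adenosine and purine enzymes 17 of 20 were tested, 12 above and 5 below 0. Their log2 fold changes ran from -0.11 (*Ak3*) to 0.63 (*Adk*), and *Adk* lay above the 95th percentile of all genes tested (0.47). *Aprt*, which makes AMP from adenine, was at 66.9 to 78.9 CPM with overlapping groups.

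The cAMP arm lies downstream of the adenosine receptors, and 26 of its 31 genes were tested, 8 above and 18 below 0, with a median log2 fold change of -0.21. Without overlap, Tox RV was lower in 7 of these (17.4% of all genes) and higher in 3 (18.6%). *Gnas*, the stimulatory G protein subunit to which the receptors of *Adora2a* and *Adora2b* couple, was at 475 and 374 CPM with EV RV and 351 and 363 CPM with Tox RV (log2 fold change -0.25, standard error 0.19, edgeR adjusted p = 0.897). *Crem*, a transcription factor gene that cAMP induces, was at 56.4 and 78.5 CPM and at 33.3 and 39.5 CPM. Its log2 fold change was -0.89 (SE 0.23, unadjusted p = 0.00832, adjusted p = 0.897), and -1.12 to -0.63 with a library left out. *Pde8a*, which breaks down cAMP, was at 9.84 and 8.04 CPM and at 6.24 and 5.49 CPM (log2 fold change -0.60, standard error 0.23, unadjusted p = 0.0391, adjusted p = 0.897). *Prkar1a*, a regulatory subunit of protein kinase A, was at 271 to 406 CPM with overlapping groups.

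**Figure D5:**
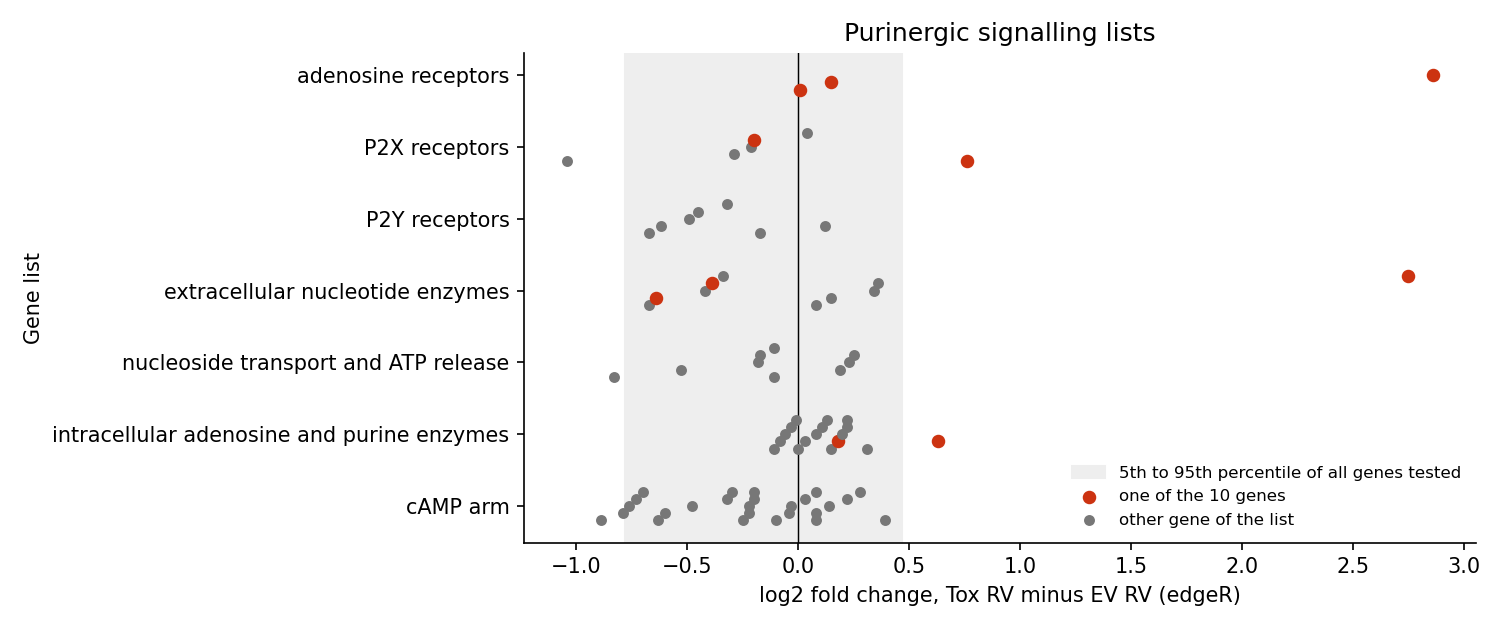
Log2 fold change (Tox RV minus EV RV, edgeR) of each gene tested in the 7 lists, with the 10 genes in red, the others in grey and the 5th to 95th percentile of all genes tested (-0.78 to 0.47) shaded. *Adora3* and *Acpp* stand beyond 2.7, and most other genes lie within the shaded range.

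*Adora3* is also known from mast cells and myeloid cells, and *Entpd1* from regulatory T cells and B cells. Of the mast cell and basophil markers, *Fcer1a* and *Mcpt8* had at most 2 counts in any library and *Cpa3* at most 10. *Hdc* (40 to 61 counts) and *Ms4a2* (19 to 36 counts) were detected in all 4. The summed level of all 6 markers was 8.01 and 2.05 CPM with EV RV and 12.2 and 7.36 CPM with Tox RV. Except in EV RV replicate 2, it came mostly from *Kit* (6.40 and 0.670 CPM with EV RV, 10.5 and 5.82 CPM with Tox RV). Of the 3 markers tested, 2 were above 0. The 7 myeloid markers summed to 4.65 and 6.08 CPM with EV RV and 6.21 and 4.66 CPM with Tox RV. The sum came mostly from *Cd68* (129 to 297 counts), while *Lyz2* had 2 counts or fewer. The 6 B cell markers summed to 1.40 to 1.75 CPM, with *Ms4a1* and *Pax5* at 0. *Cd79a* (13 to 62 counts, log2 fold change -0.57) and *Cd79b* (21 to 66 counts, 0.60) were detected in all 4 libraries. The 4 regulatory T cell markers summed to 1499 and 1723 CPM with EV RV and 1407 and 1326 CPM with Tox RV. This sum was lower in both Tox RV libraries, as *Entpd1* was. It came mostly from 1 gene, *Il2ra*, at 1117 and 1322 CPM with EV RV and 1053 and 934 CPM with Tox RV (log2 fold change -0.29). Of the 4, 2 were above 0, while *Ikzf2* had a log2 fold change of -0.65 and *Il2ra* of -0.29. The groups overlapped for *Ikzf2*. Its highest library was EV RV replicate 1 (143 CPM) and its lowest was EV RV replicate 2, with Tox RV between them at 60.6 and 66.2 CPM. *Foxp3* was at 0.723 to 1.25 CPM with overlapping groups. The 6 CD8 T and NK cell markers summed to 56.6 and 16.5 CPM with EV RV and 32.9 and 11.3 CPM with Tox RV, mostly from *Klrk1* and *Klrd1*. The part of cells expressing these markers in the results was not tested.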

How the data were processed

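Per the labels and the methods, the authors checked reads with FastQC, aligned them to mm10 transcripts with Bowtie (the processing notes also name Bowtie2) and quantified each gene with RSEM, 1 library per file. The deposited expected counts are RSEM's estimated counts per gene and were not normalized. The deposited TPM values are RSEM's transcript abundances scaled to 1000000 in each library. Use of strand and kit are not given in the sources used here. A series table named as TPM was not used.

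Rounded expected counts went into edgeR 4.0.16 under R 4.3.3 (filterByExpr with minimum count 10, TMM, glmQLFit and glmQLFTest, no block), Benjamini-Hochberg adjusted over the 14143 genes tested, after the tests had been tested on simulated data. Standard errors came from the log2 fold change and the F statistic, and SDs are over 2 libraries unless stated. Alternatives were DESeq2 1.42.0 (the study's tool), limma 3.58.1 on log2(TPM + 1) and log2(TPM + 0.1), other scalings, no filter, the replicate number as a block, leaving out each library, and *Adora3* summed with *Tmigd3*. Depth was 46989997 to 74548723 expected counts, where 3 counts are 0.0402 to 0.0638 CPM.

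Gene coordinates and overlaps came from GENCODE M21 (mm10), promoters from RefSeq. The 10 genes, the lists and the motifs were chosen with earlier results of these data known. The ratios between genes were not planned. Genes named were the 10, *Tox*, genes overlapping the 10, in each list those at an unadjusted p below 0.05 (edgeR) or an adjusted p below 0.05 (DESeq2) and the 2 most abundant, and the 5 genes closest to *Adora3*. Of these, 1 list gene is not reported here. Other list members and markers were named after their values were seen.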

Additional observations from a re-analysis of the deposited data

How the results depend on the processing

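With edgeR's quasi-likelihood test 0 of the 10 genes, 0 of the 94 list genes and 0 of all genes were called. DESeq2 called 2, 2 and 22, the fit with no filter on low counts 2, 2 and 22, and the replicate block 2, 2 and 16, the 2 being *Adora3* and *Acpp*, which were chosen by this difference, so that their calls are no test of it. Left-out libraries gave 0 to 2 of the 10, 0 to 4 of the list genes and 1 to 600 of all genes, the highest without EV RV replicate 2, where the 4 included *Nt5e*, *Pde4d* and *Slc29a3*. Without EV RV replicate 1 or Tox RV replicate 1, 0 of the 10 were called, and without Tox RV replicate 2, *Adora3* and *Acpp* were. Each such fit has 1 lone library that is assumed to vary like the other group. Same-numbered libraries deviated together (correlation 0.302 across genes), but with 2 pairs a number is not known to mark a mouse.

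The log2 fold change of *Adora3* was 1.5 on log2(TPM + 1), 1.99 summed with *Tmigd3* and 1.87 to 3.44 with a library left out, and that of *Acpp* 2.12 to 3.63 with a library left out and 0.77 on log2(TPM + 1), where the pseudocount exceeds most of its values. Signs turned for *Adora2a* (-0.03 with both TPM pseudocounts, -0.38 to 0.53 with a library left out), *Adora2b* (-0.25 to 0.73), *Nt5e* (-1.12 to 0.09), *Ada* (-0.06 to 0.45) and *P2rx4* (-0.49 to 0.07), each with a library left out. With a library left out they also turned for *Tmigd3* (-1.64 to 0.85), *P2ry10* (-0.39 to 0.09), *Aprt* (-0.0039 to 0.17) and *Prkar1a* (-0.22 to 0.35), and with both TPM pseudocounts for *Aprt* (-0.0015) and *Prkar1a* (-0.02). The cause was not tested. Of the 111 alternative values of the 10 genes, 95 kept their direction and side of the threshold, or for *Adora3* and *Acpp* moved by less than 1 SD of the replicates. Scaling by library totals raised the median of all genes by 0.12 on the log2 scale and turned no sign among the 10. *Acpp* in EV RV cells, at 24 and 15 counts, is limited by depth.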

Other observations

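Among 14142 other genes tested, the 5 whose log2 CPM over the 4 libraries, centred on their mean, lay closest to those of *Adora3* were *Gcnt1*, *Ccl4*, *Asb2*, *Xcl1* and *Ccl3*, at a root mean square distance of 0.401 to 0.438. In each of them Tox RV replicate 1 was the highest library, as it was for *Adora3* (*Gcnt1* at 24.3 and 10.1 CPM with Tox RV, *Asb2* at 252 and 127 CPM). They were picked by closeness to *Adora3* over these libraries, so the shared highest library is no separate result. *Acpp* was the closest of the 10 pathway genes, at a distance of 0.647 and place 12, followed by *P2rx7* at 1.05 and place 140. With 4 libraries and genes that differ between the same groups, such closeness is a description.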
